A study of Homo sapiens with 20 samples.

Results

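MLL4 and MLL1 are both methyltransferases of lysine 4 of histone H3 (H3K4), and the regions compared here are those that ChIP-seq peak lists of wild-type (WT) HCT116 cells give for each of them on chromosomes 1 to 22. HCT116 is an established human colorectal carcinoma cell line. The MLL4 list held 55887 peaks and the MLL1 list 36419 on these chromosomes. Peaks of the lists that overlapped by at least 1 bp were joined, which gave 83160 regions in 3 classes: 46993 MLL4-only regions (56.5%), 28276 MLL1-only regions (34.0%) and 7891 shared regions (9.49%). The shared regions held 8894 MLL4 and 8143 MLL1 peaks. The members are 2 of the 20 samples of the study, and the classes rest on MLL4 and MLL1 peaks alone, so the histone marks are separate readouts.

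The study compared WT HCT116 cells with an MLL4-knockout (KO) line, both grown in DMEM with 10% FBS, and the labels name no treatment. It held 18 ChIP libraries for 6 targets and 2 inputs. WT had 1 library each for MLL4, MLL1 and H3K4me1 and 2 each for H3K4me3 and H3K27ac, and all WT lists were called against the same input. Whether the KO line is a single clone and whether paired libraries came from separate cultures is not given in the sources used here. With 1 library for each methyltransferase there is no replicate spread for a class, no test between classes was possible, and every interval below is a 95% Wilson interval over regions that covers counting error only.

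As background, MLL4, the product of KMT2D, works in a complex with UTX (KDM6A), NCOA6 and PTIP and is known mainly as the enzyme that places monomethylation (H3K4me1) at enhancers. MLL1, the product of KMT2A, works with menin (MEN1), carries a CXXC domain that binds unmethylated CpG, and is known for holding HOX genes active. H3K4me3 is the mark of active promoters, H3K27ac is found at active promoters and enhancers alike, and H3K4me1 is typical of enhancers and of the borders of promoters.

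Promoters of high fold enrichment with both proteins, MLL1 alone or MLL4 alone are shown first, because the classes differed in the sequence around gene starts. Fold enrichment is the authors' ratio of ChIP over local background for a peak. The RefSeq table used, on the hg38 build of the lists, gives 250 bases before and 50 after a gene start for 15101 of the 19126 protein-coding genes on these chromosomes. Capitals mark matches, on either strand, to motifs searched by their letters: the GC box GGGCGG, an ETS site CCGGAAG, the NRF1 core GCGCATGC, the CCAAT box CCAAT, the TATA box TATAAA, the AP-1 sites TGACTCA and TGAGTCA, the CRE TGACGTCA, the E-box CACGTG and a YY1 site AAGATGGC. The first pair had peaks of both proteins over the window. They belong to neighbouring genes on the plus strand of chromosome 12: CDKN1B, which encodes the cell cycle inhibitor p27, and APOLD1 (chr12:12717118-12717417 and chr12:12725667-12725966).
CDKN1B: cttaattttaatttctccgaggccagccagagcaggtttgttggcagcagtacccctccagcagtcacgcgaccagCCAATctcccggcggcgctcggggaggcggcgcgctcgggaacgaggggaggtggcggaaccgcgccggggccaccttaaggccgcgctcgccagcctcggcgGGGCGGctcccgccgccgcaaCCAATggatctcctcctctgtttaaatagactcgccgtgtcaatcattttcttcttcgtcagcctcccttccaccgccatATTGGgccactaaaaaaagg
APOLD1: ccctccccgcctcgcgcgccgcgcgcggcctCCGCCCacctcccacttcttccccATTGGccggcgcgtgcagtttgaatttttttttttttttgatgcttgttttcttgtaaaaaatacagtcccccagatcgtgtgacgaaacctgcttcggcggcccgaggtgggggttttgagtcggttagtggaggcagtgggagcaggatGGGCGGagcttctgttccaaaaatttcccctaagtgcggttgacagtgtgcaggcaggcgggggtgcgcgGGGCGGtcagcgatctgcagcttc
The CDKN1B window held 29 CpG dinucleotides, 1 GC box and 3 CCAAT boxes, with MLL4 at 35.9-fold and MLL1 at 43.0-fold. The APOLD1 window held 25 CpG, 3 GC boxes and 1 CCAAT box, with MLL4 at 40.9-fold and MLL1 at 87.0-fold.

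The next pair had MLL1 over the window and no MLL4 peak within 1 kb of the start, although both wide MLL1 peaks met an MLL4 peak farther off and so count as shared regions: SMC4, a subunit of condensin (chr3:160399400-160399699, plus strand), and HOXA9, a homeobox factor of posterior identity (chr7:27165488-27165787, minus strand).
SMC4: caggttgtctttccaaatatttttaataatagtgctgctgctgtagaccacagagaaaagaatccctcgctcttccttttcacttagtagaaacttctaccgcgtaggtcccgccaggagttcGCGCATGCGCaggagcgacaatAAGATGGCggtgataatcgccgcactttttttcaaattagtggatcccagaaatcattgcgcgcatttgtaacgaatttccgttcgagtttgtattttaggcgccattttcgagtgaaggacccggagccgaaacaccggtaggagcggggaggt
HOXA9: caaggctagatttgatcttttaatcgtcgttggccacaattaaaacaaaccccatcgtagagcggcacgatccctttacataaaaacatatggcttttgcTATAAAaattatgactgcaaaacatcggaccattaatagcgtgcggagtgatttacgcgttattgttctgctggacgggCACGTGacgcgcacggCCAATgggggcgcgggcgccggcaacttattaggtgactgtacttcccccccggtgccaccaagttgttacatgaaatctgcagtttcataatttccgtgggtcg
MLL1 stood at 108-fold over SMC4, whose window held 22 CpG, 1 YY1 site and 2 matches to the NRF1 core that overlap each other on the 2 strands. It stood at 101-fold over HOXA9, whose window held 22 CpG, 1 TATA box, 1 CCAAT box and 1 E-box. H3K4me3 was high at both, with folds of 151 and 182 in the 2 libraries at SMC4 and 145 and 174 at HOXA9.

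The last pair had MLL4 over the window and no MLL1 peak within 1 kb: RHOU, a small GTPase (chr1:228644397-228644696, plus strand), and SCYGR8, a gene of a cysteine- and glycine-rich repeat family (chr2:227745644-227745943, plus strand).
RHOU: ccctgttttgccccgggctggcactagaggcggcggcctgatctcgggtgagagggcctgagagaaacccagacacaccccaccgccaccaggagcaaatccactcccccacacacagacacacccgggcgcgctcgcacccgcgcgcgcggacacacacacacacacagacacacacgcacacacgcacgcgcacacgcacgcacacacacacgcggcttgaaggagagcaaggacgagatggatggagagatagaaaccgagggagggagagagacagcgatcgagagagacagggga
SCYGR8: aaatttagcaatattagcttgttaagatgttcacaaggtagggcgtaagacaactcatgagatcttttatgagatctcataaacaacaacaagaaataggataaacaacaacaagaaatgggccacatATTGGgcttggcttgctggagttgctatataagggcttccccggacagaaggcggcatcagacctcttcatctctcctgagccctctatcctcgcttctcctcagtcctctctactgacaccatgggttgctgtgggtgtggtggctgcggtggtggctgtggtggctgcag
The RHOU window was rich in CpG, at 26, held runs of alternating c and a, and matched none of the motifs searched. The SCYGR8 window held 5 CpG and 1 CCAAT box. MLL4 stood at 24.6-fold over RHOU and 15.4-fold over SCYGR8. Neither window overlapped an H3K4me3 peak in either library. H3K27ac was called over RHOU in 1 of 2 libraries, at 28.9-fold, and over SCYGR8 in both, at 4.51- and 4.43-fold. This pair does not stand for all strong MLL4-only regions near genes. Within 1 kb of a gene end, those at CA11, ZDHHC8 and FTH1 were stronger (92.5-, 57.5- and 54.7-fold). Each of those had H3K4me3 in both libraries.

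MLL4 and MLL1 were mostly called at different places in these lists. Of MLL4 peaks, 15.9% (15.6 to 16.2) overlapped an MLL1 peak, and of MLL1 peaks, 22.4% (21.9 to 22.8) overlapped an MLL4 peak. With peaks of a −log10 q-value of at least 5 alone, the shares were 25.1% of MLL4 peaks and 15.9% of MLL1 peaks, so the order of the 2 shares turned. With the strongest 5000 peaks of each list they were 14.2% and 13.6%. In these comparisons both lists were cut, so a peak that met only weaker peaks of the other list counted as unshared. With the full lists, 29.9% of regions in the highest of 5 MLL4 fold groups were shared, and 52.1% in the highest MLL1 group. An MLL4-only region lay a median of 18818 bp from the nearest MLL1 peak, and an MLL1-only region a median of 8485 bp from the nearest MLL4 peak. The MLL4 list was made of many narrow, weak peaks. Its median width was 225 bp and its median fold 4.17, and 15.6% of its peaks reached a −log10 q-value of 5. In the MLL1 list the median width was 307 bp, the median fold 4.62 and the share at that q-value 36.6%. Of MLL4 peaks, 54.5% carried 1 of 3 fold values (3.335, 4.17 or 5.00), and the 3 commonest values of the MLL1 list covered 36.8%. Read depth is not given in the sources used here, so a region without a peak was below the calling limit of its library, and whether weaker occupancy was present there is not detectable from these lists.

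The KO line served as a check on the MLL4 antibody. Its MLL4 list held 257 peaks on these chromosomes. A KO MLL4 peak lay at 8 of the 46993 MLL4-only regions (0.0170%), at 112 shared regions (1.42%) and at 80 MLL1-only regions (0.283%), where WT had no MLL4 peak, against 0.2405% of all regions. The labelled cell type was read from H3K4me3 at gene starts, where 9648 of all 15101 genes with a listed start had a peak in both libraries. Of 11 colon epithelial markers chosen, 5 had a listed start, and all 5 had the mark (CDX2, CLDN4, ELF3, KRT8 and KLF5). It was found at 0 of 3 blood markers (CSF1R, PTPRC and CD79A) and 1 of 2 mesenchymal markers (VIM, and not PDGFRB). Of neuronal markers 0 of 2 had it (RBFOX3 and NEUROD1), while it was 3 of 8 over the longer neuronal list. Since most listed starts had the mark, the colon count says little about cell type by itself.

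Shared regions were wider and stronger than the rest in both lists, which the joining of peaks favours in width. Their median width was 1054 bp, against 217 bp for MLL4-only and 257 bp for MLL1-only regions. MLL1 gave most of that width: within shared regions the strongest MLL4 peak had a median width of 306 bp and the strongest MLL1 peak 930 bp, and MLL1 was the wider in 6387 regions (80.9%). In 6855 shared regions (86.9%) 1 MLL4 peak met 1 MLL1 peak. Over all 7891 shared regions the summits of the strongest peaks lay a median of 196 bp apart (quartiles 80 and 401 bp), and 50.9% lay within 200 bp. Median MLL4 fold was 5.00 in shared against 4.17 in MLL4-only regions, or rank 76.5 against 54.8 on a scale where 100 is the top of the MLL4 list. Median MLL1 fold was 8.60 against 4.30, or rank 78.6 against 42.1 of the MLL1 list. Within the shared regions the 2 folds were nearly unrelated, with a Spearman rank correlation of 0.052 over 7891 regions that share 1 input, given as a description.

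H3K4me3 separated the classes most. It was called in both libraries at 3.36% of MLL4-only regions (3.20 to 3.52), 40.5% of MLL1-only regions (39.9 to 41.1) and 80.8% of shared regions (79.9 to 81.7), against 23.3% of all 83160 regions. By single library the shares were 4.29% and 3.83% for MLL4-only, 44.7% and 41.8% for MLL1-only and 83.6% and 81.2% for shared regions. The 2 libraries thus gave values within 3 percentage points of each other in each class, and the classes lay far apart in each. The MLL1-only share rose to 90.8% and the MLL4-only share to 10.3% with peaks of a −log10 q-value of at least 5, where shared regions stood at 86.8%, below MLL1-only regions. With the strongest 5000 peaks of each list the shares were 20.5%, 98.6% and 88.6%. The MLL4-only class was thus the lowest in H3K4me3 under each of these thresholds, and the order of the other 2 classes was not stable.

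H3K27ac was called in both libraries at 35.6% of MLL4-only (35.2 to 36.0), 60.4% of MLL1-only (59.9 to 61.0) and 94.1% of shared regions (93.6 to 94.6), against 49.6% of all regions. By library these were 37.1% and 43.5%, 64.8% and 65.9%, and 94.8% and 95.4%. H3K4me1, with 1 library, was called at 31.2% (30.8 to 31.7), 64.9% (64.4 to 65.5) and 85.3% (84.5 to 86.1), against 47.8% of all. The class of MLL4 alone therefore had the lowest share of every mark, including H3K4me1. At a −log10 q-value of at least 5 the MLL4-only shares were 53.7% for H3K27ac and 47.1% for H3K4me1, and the MLL1-only shares 94.2% and 80.5%. With the strongest 5000 peaks of each list H3K27ac stood at 58.0% of MLL4-only, 98.7% of MLL1-only and 93.4% of shared regions, so here too MLL1-only regions passed shared ones. When the mark had to cover the summit, H3K4me1 fell most in shared regions, from 85.3% to 64.7%, and H3K4me3 little, from 80.8% to 78.2%.

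**Figure D1:**
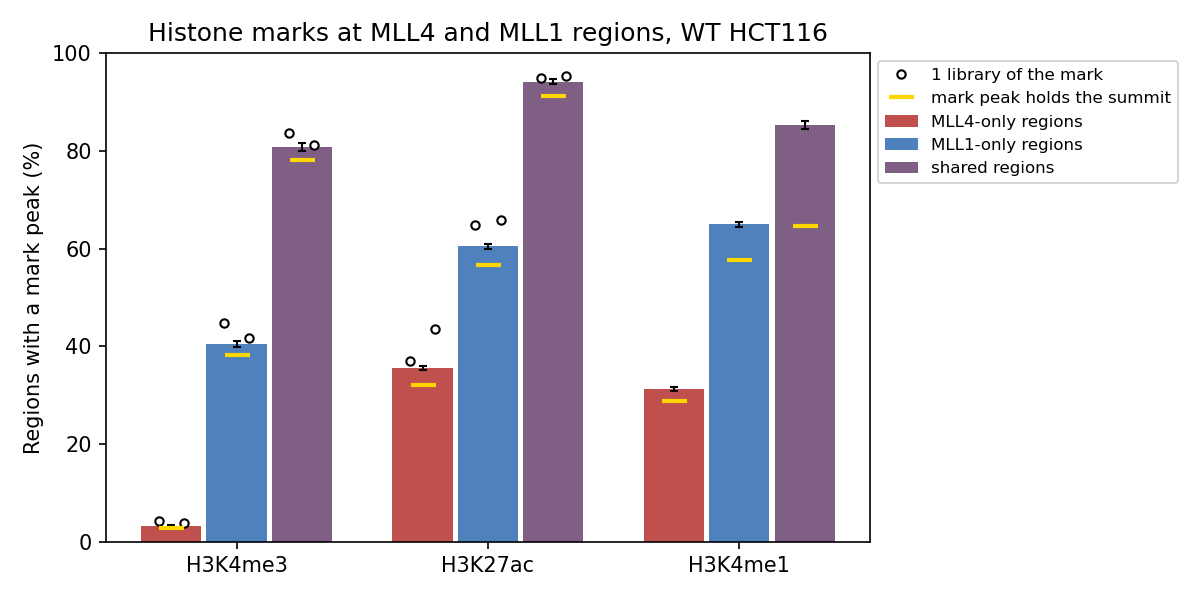
Share of MLL4-only, MLL1-only and shared regions (bars, %) with a WT peak of H3K4me3, H3K27ac (both in both libraries) or H3K4me1 (1 library); error bars are 95% Wilson intervals over regions, open circles are single libraries of the mark and gold lines are shares with the mark at the summit. For H3K4me3 the bars stand at 3.36%, 40.5% and 80.8%.

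The combination of marks tells enhancer-like from promoter-like chromatin. H3K4me1 with H3K27ac and without H3K4me3, the usual signature of active enhancers, was found at 9984 MLL4-only regions (21.2%), 5464 MLL1-only regions (19.3%) and 914 shared regions (11.6%). Because MLL4-only regions were the most numerous, they made up 61.0% of the 16362 regions with this combination, MLL1-only regions 33.4% and shared regions 5.59%. When no H3K4me3 peak was allowed in any library, the shares were 20.1%, 15.3% and 8.68%, against 17.4% of all regions. All 3 marks together, as at the flank and centre of a promoter, were found at 2.72% of MLL4-only, 30.9% of MLL1-only and 71.4% of shared regions. H3K27ac alone was found at 11.3%, 3.73% and 2.53%, so 80.9% of the 6585 regions with only this mark were MLL4-only. H3K4me1 alone was found at 6.97%, 12.2% and 1.51%. No mark in any WT library was found at 50.9% of MLL4-only, 21.2% of MLL1-only and 2.85% of shared regions, against 36.3% of all.

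**Figure D2:**
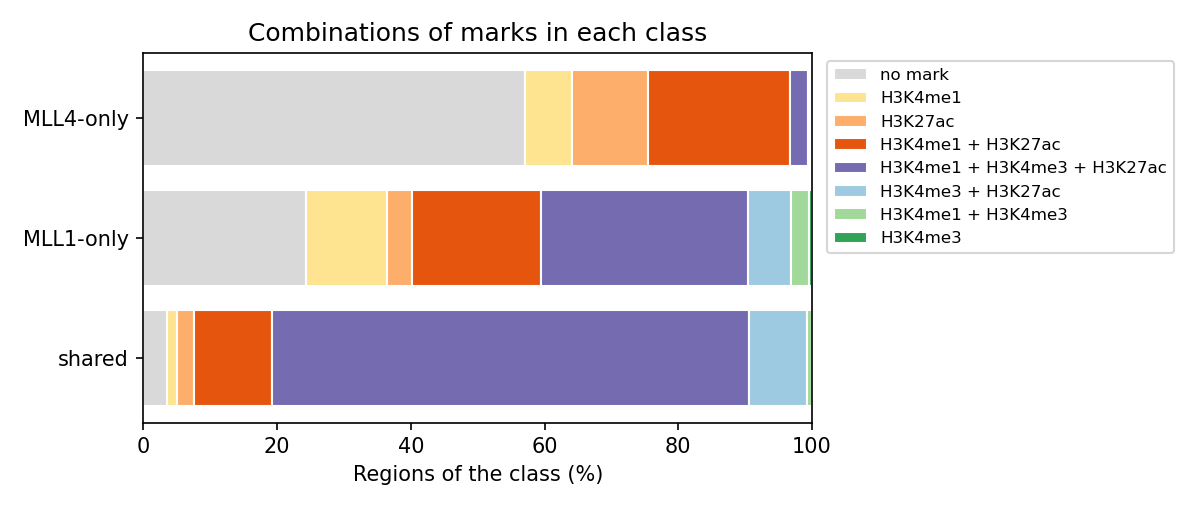
Share of each class (%, horizontal axis) by the combination of H3K4me1, H3K4me3 and H3K27ac peaks, each mark counted in both WT libraries (the 1 library for H3K4me1). The segment with all 3 marks takes 71.4% of shared and 2.72% of MLL4-only regions, and the segment of H3K4me1 with H3K27ac takes 11.6% to 21.2% of each class.

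Position relative to genes followed H3K4me3. Of MLL4-only regions 9.74% lay within 1 kb of an end of a protein-coding gene, of MLL1-only regions 28.2% and of shared regions 62.9%, against 21.1% of all. Away from gene ends H3K4me3 was still found at 1.77% of MLL4-only, 22.4% of MLL1-only and 55.7% of shared regions. Within 1 kb of a gene end it was found at 18.1%, 86.5% and 95.6%. MLL4-only regions thus had less H3K4me3 than MLL1-only regions both at gene ends and away from them. Among regions more than 1 kb from any peak of the other protein, H3K4me3 was found at 1.12% of MLL4-only and 37.2% of MLL1-only regions.

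H3K4me3 rose steeply with fold in the MLL1-only class. In the MLL4-only class, whose other marks rose with fold, it reached no more than 5.60% in any of the 5 fold groups. Each list was divided into 5 groups by fold, with equal folds kept together. From the lowest to the highest group, H3K4me3 at MLL1-only regions went from 13.8% through 17.4%, 31.003% and 74.2% to 98.5%. At MLL4-only regions the same series ran 1.33%, 2.18%, 3.56%, 4.70% and 5.60%. MLL1-only regions in the highest group, with folds of at least 9.17, also had H3K27ac in 98.7%, lay within 1 kb of a gene end in 78.8%, and had a median width of 1161 bp, against 196 bp in the lowest group. Their enhancer signature (H3K4me1 and H3K27ac, no H3K4me3 in any library) was found in 17.7%, 20.8%, 20.1%, 7.96% and 0.327% of regions from the lowest to the highest group. In MLL4-only regions this signature took the other course, at 7.71%, 15.1%, 24.2%, 26.4% and 26.3%. H3K27ac at MLL4-only regions was found in 14.1% of the lowest and 46.2% of the highest group, H3K4me1 in 16.3% and 40.9%, and no mark in any WT library in 73.2% and 38.99%. In the highest fold group, unshared MLL1 was therefore at H3K4me3 with few exceptions, and unshared MLL4 mostly was not. That MLL4 group began at 5.01-fold and holds many weak peaks. With both lists cut to their strongest 5000 peaks, H3K4me3 was found at 20.5% of MLL4-only regions. Of the 10 MLL4-only regions of highest fold outside structural RNA genes, 3 had it in both libraries.

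Overlap itself rose with fold in both lists. Of regions in the lowest MLL4 group 4.15% (3.66 to 4.71) were shared and of those in the highest 29.9% (29.0 to 30.8). For MLL1 the shares were 6.58% (5.96 to 7.27) and 52.1% (50.9 to 53.3). H3K4me1 at the summit of MLL1-only regions was highest in the group next to the top, at 70.9%, and was 43.6% in the top group, where H3K4me3 was most frequent.

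**Figure D3:**
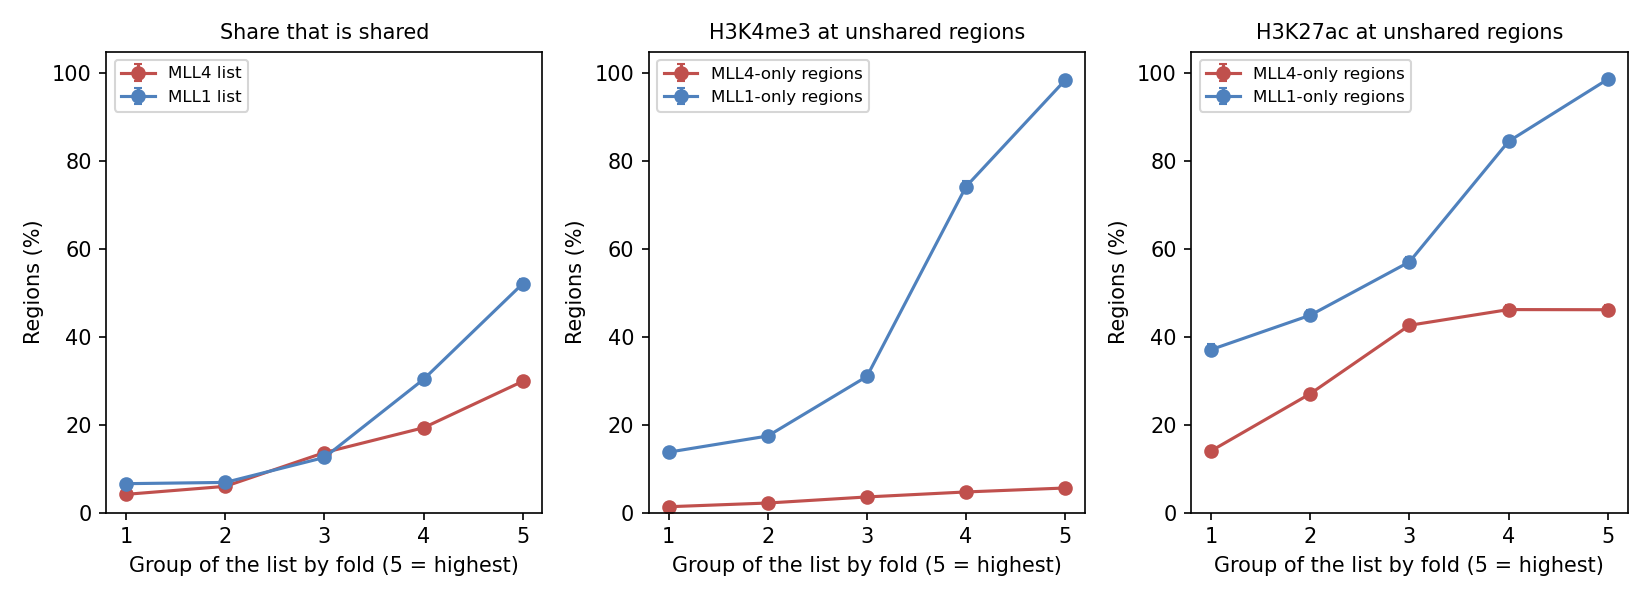
Regions divided into 5 groups by fold enrichment in the MLL4 list (red) or the MLL1 list (blue), lowest to highest on the horizontal axis; vertical axes give the share (%) that was shared (left), and the share of unshared regions with H3K4me3 (middle) or H3K27ac (right), with 95% Wilson intervals. H3K4me3 at MLL1-only regions climbs from 13.8% to 98.5% while at MLL4-only regions it stays between 1.33% and 5.60%.

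The same comparison was made from the side of the marks. Of 16755 H3K4me3 regions called in both libraries, 82.1% overlapped MLL1 and 42.4% MLL4. Both were present at 39.7%, MLL1 without MLL4 at 42.4% (7108 regions), MLL4 without MLL1 at 2.76% (462) and neither at 15.1%. The median H3K4me3 fold in replicate 1 was 119.6 with both, 82.9 with MLL1 alone, 24.8 with MLL4 alone and 9.39 with neither. In replicate 2 it was 139, 104, 23.6 and 8.19. Median widths were 2487, 1978, 1268 and 794 bp, so stronger H3K4me3 regions were also wider and offered more length to meet a peak. The part of width in these shares was not tested.

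Of 51623 regions with H3K27ac and H3K4me1 and without H3K4me3, 14.7% overlapped MLL4 and 7.36% MLL1. MLL4 without MLL1 was found at 12.5% (12.3 to 12.8), MLL1 without MLL4 at 5.16% (4.97 to 5.35), both at 2.20% and neither at 80.1%. The order of the proteins was thus the reverse of that at H3K4me3 regions, with the MLL4 list the longer of the 2. Divided into 10 groups by the fold of the mark, H3K4me3 regions had MLL1 at 36.6% in the lowest and 99.3% in the highest group and MLL4 at 10.4% and 69.8%. The enhancer-like regions had MLL4 at 5.53% and 35.9% and MLL1 at 2.85% and 22.3%. Median width rose along the same groups, from 634 to 2771 bp for H3K4me3 and from 686 to 2797 bp for the enhancer-like regions.

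**Figure D4:**
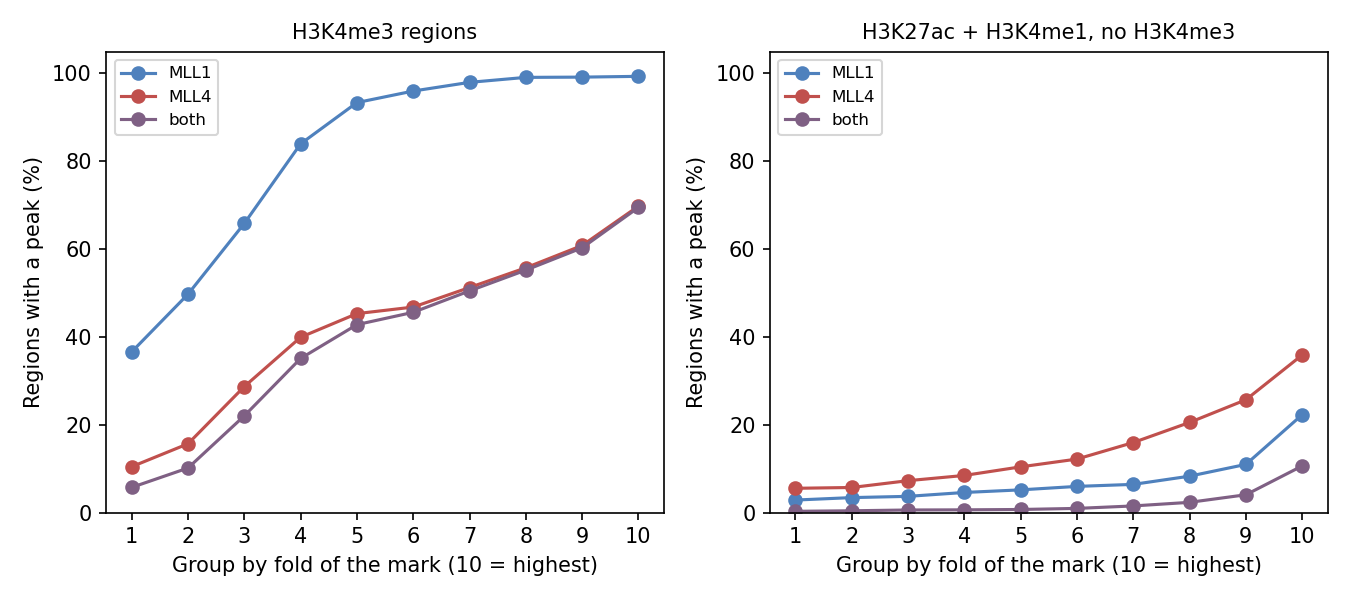
Share (%) of H3K4me3 regions (left) and of regions with H3K27ac and H3K4me1 and no H3K4me3 (right) that overlap an MLL1 peak (blue), an MLL4 peak (red) or both (purple), in 10 groups by the lower of the fold values of the mark in its 2 libraries. MLL1 lies above MLL4 in each group on the left and below it in each group on the right.

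At gene starts the summits of the proteins differed in median position, while their ranges overlapped widely. Among summits within 2 kb of a listed start and with the sign set by strand, the median MLL4 summit of peaks that overlapped MLL1 lay 87 bp downstream and the median MLL1 summit of peaks that overlapped MLL4 lay 214 bp downstream. Quartiles were −106 and 380 bp for these MLL4 summits and −4 and 446 bp for these MLL1 summits, with 1 library for each protein. The share downstream of the start was 62.0% for these MLL4 summits and 74.7% for these MLL1 summits. The densest 100 bp for MLL4 began at the start itself (13.9% of summits), and for MLL1 at 200 bp (15.5%). Of MLL1-only summits near a start 66.7% lay downstream, with a median of 177 bp. MLL4-only summits were spread out, with quartiles at −476 and 914 bp and 57.1% downstream.

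**Figure D5:**
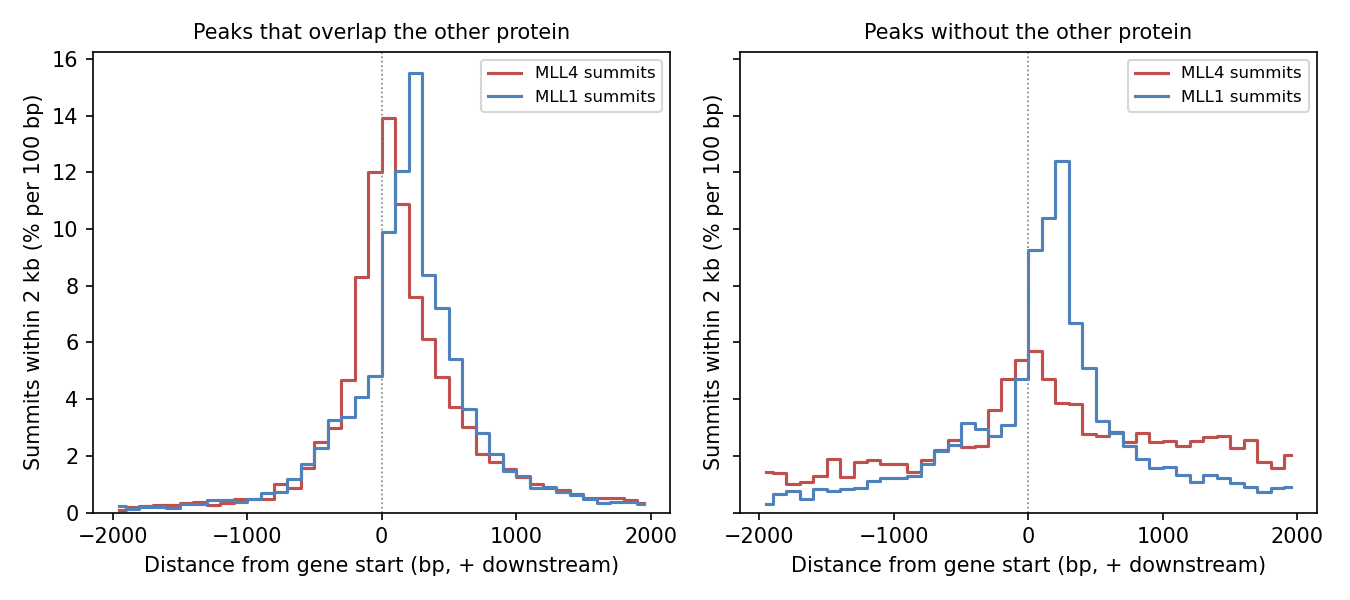
Distance of MLL4 (red) and MLL1 (blue) summits from the nearest listed gene start (bp, positive downstream), as % of the summits within 2 kb per 100 bp, for peaks that overlap the other protein (left) and peaks that do not (right). MLL4 summits at shared places peak at the start and MLL1 summits at 200 to 300 bp past it, while MLL4 summits without MLL1 form a low, broad profile.

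Of the 15101 genes with a listed start, 4861 (32.2%) had both proteins within 1 kb, 4496 (29.8%) had MLL1 without MLL4, 1034 (6.85%) had MLL4 without MLL1 and 4710 (31.2%) had neither. H3K4me3 lay at the start of 98.6% of genes with both, 96.4% with MLL1 alone, 18.5% with MLL4 alone and 7.03% with neither. MLL4 without MLL1 was therefore found at 843 of 5453 starts without H3K4me3 (15.5%) and at 191 of 9648 starts with it (1.98%). MLL1 without MLL4 was found at 2.99% and 44.9%.

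The sequences of these starts differed as well, taking 1 start per gene. The median number of CpG in 300 bases was 30 with both proteins, 25 with MLL1 alone, 19 with MLL4 alone and 5 with neither, and median GC content was 68.7%, 64.0%, 64.7% and 52.7%. A GC box was found in 79.4%, 69.4%, 60.3% and 30.3% of windows, against 58.7% of all 15101. The ETS site was found in 18.8%, 22.8%, 5.38% and 4.36% (14.3% of all) and the NRF1 core in 5.76%, 6.50%, 2.29% and 1.09% (4.19% of all). The TATA box showed the opposite order, at 4.85%, 4.92%, 8.57% and 18.9% (9.83% of all). The YY1 site was found in 4.96%, 6.28%, 1.39% and 1.21% (3.87% of all), the E-box in 11.2%, 10.3%, 8.17% and 5.21% (8.71%) and the CRE in 3.27%, 3.73%, 2.09% and 1.13% (2.62%). The CCAAT box varied little, at 34.2%, 38.0%, 32.6% and 36.6% (36.1%). AP-1 sites were rare throughout, at 2.82%, 2.42%, 3.39% and 5.41% (3.60%).

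Starts with MLL4 alone mostly lacked H3K4me3 and starts with MLL1 alone mostly had it, so the same counts were taken within each kind of start. Among starts with H3K4me3, the median was 25 CpG both for the 4386 with MLL1 alone and for the 185 with MLL4 alone. A GC box was found in 70.5% and 77.3% (74.6% of all such starts). The ETS site was found in 23.6% and 7.03% (20.8% of all such starts) and the YY1 site in 6.48% and 3.78% (5.65%). The NRF1 core was found in 6.68% and 4.86% (6.14%) and the TATA box in 4.65% and 9.19% (4.90%). With MLL4 alone these 4 motifs rest on 13, 7, 9 and 17 windows. Among starts without H3K4me3, the median was 8 CpG for the 168 with MLL1 alone and 18 for the 819 with MLL4 alone. A GC box was found in 41.7% and 56.4% (32.5% of all such starts). The ETS site was found there in 1.79% (3 windows) and 5.01% (41 windows), against 3.66% of all starts without H3K4me3. This order is the reverse of that at starts with H3K4me3, but it rests on few windows. The lower CpG content of MLL4 starts over all genes was therefore absent within either kind of start. A matching sequence is a description of the window and not a site of binding.

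Among strong single regions the MLL1-only class was uniform. Leaving out structural RNA genes, the 10 MLL1-only regions of highest fold all had H3K4me3 and H3K27ac in both libraries, 7 lay within 1 kb of a gene end and all 10 had an MLL1 peak in KO. The highest, at 102-fold, lay inside PAM, a peptide-amidating enzyme (chr5:102865494-102866887), with H3K4me3 at 75.03- and 114-fold. The others included LSM6, an RNA-processing protein (74.1-fold, chr4:146175526-146176665), a region 75495 bp from IFNE, an epithelial interferon (71.5-fold), MRPL44, a mitochondrial ribosomal protein (67.7-fold), SLC71A1 (64.5-fold), CBFB, the partner of RUNX factors (59.6-fold), MCM3AP (59.1-fold), DUSP4, a phosphatase of MAP kinases (57.0-fold), and NAA20, an N-terminal acetyltransferase (56.4-fold).

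The 10 strongest MLL4-only regions were mixed. Only 3 had H3K4me3 in both libraries and 2 had no mark in any library. The 3 were at CA11, a carbonic anhydrase-related gene (92.5-fold, chr19:48646199-48646819; H3K4me3 41.9 and 40.2), ZDHHC8, a palmitoyltransferase (57.5-fold, chr22:20130886-20131846; H3K4me3 196 and 180.1) and the ferritin heavy chain gene FTH1 (54.7-fold, chr11:61967312-61967613; H3K4me3 27.3 and 30.0). Each of these 3 had an MLL1 peak in the KO library, at 10.2-, 22.7- and 14.3-fold, and none in WT. The others were in LOC124904701 (51.9-fold), in FAM20C, a secretory kinase (38.8-fold), near PIK3AP1 (38.2-fold), over AFP, the fetal serum protein of liver (37.2-fold over 6442 bp, chr4:73447461-73453902), at a second FTH1 region (35.3-fold), near GTF3C5, a factor of RNA polymerase III (34.9-fold), and near HNRNPLL (34.6-fold). PIK3AP1 and GTF3C5 were the ones without any mark. An MLL1 peak of KO lay at 5 of the 10. Besides the 3 with H3K4me3 these were the regions in LOC124904701 and FAM20C, at 56.0- and 62.8-fold, where neither library had an H3K4me3 peak.

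The strongest shared regions, ranked by the lower of their 2 ranks, lay within 1 kb of a gene end in 7 of 10 cases. A region that overlapped CDKN1B and held the APOLD1 start led (chr12:12721249-12726489, with MLL4 at 40.9-fold and MLL1 at 87.0-fold). The neighbouring region at GPR19 and the CDKN1B start was also among the 10 (35.9- and 43.0-fold). ARHGAP29, a regulator of small GTPases, came next (37.9- and 44.7-fold). A region near ACSF3 (30.8- and 43.5-fold) was the only one of the 10 without H3K4me3. The rest were RPL13, a ribosomal protein (23.5- and 40.3-fold), OAZ1, the ornithine decarboxylase antizyme (15.6- and 42.4-fold), PTMA, prothymosin alpha (13.5- and 59.0-fold), ARHGDIA, an inhibitor of small GTPases (12.9- and 58.0-fold), HSPD1, the mitochondrial chaperonin (19.2- and 33.8-fold), and a region near CCDC200 (16.7- and 31.7-fold). At CCDC200 the KO MLL4 library also had a peak, at 16.7-fold.

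Genes of structural RNAs held the highest MLL4 folds and are given apart. They accounted for 40 MLL4-only (0.0851%), 55 MLL1-only (0.195%) and 43 shared regions (0.545%), against 0.166% of all regions. At RN7SL1, the RNA of the signal recognition particle, MLL4 stood at 530.3-fold and MLL1 at 87.0-fold, and at RN7SK, a regulator of transcription elongation, at 310.0- and 48.0-fold. The MLL4 fold thus exceeded the MLL1 fold there, while it was the lower one at all 10 shared regions named above. Folds of the 2 lists are set side by side without a test, since each library has its own depth. Of 439 transfer RNA genes, 40 overlapped MLL1 (9.11%) and 8 overlapped MLL4 (1.82%), 3 of them with both. Other kinds did not lean to MLL1 in this way. Of 49 ribosomal RNA genes, 11 overlapped MLL1 (22.4%) and 15 overlapped MLL4 (30.6%). For 1761 U RNA genes the shares were 0.852% and 0.795%. For 7SL genes and pseudogenes each share was 1.37%, and for 7SK genes and pseudogenes 1.41%.

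Enhancer-like examples, chosen after their values were seen, were weaker for MLL1. The strongest MLL4-only regions with H3K4me1 and H3K27ac and no H3K4me3 lay near RNF112 (28.8-fold), inside ZBTB46, a zinc finger factor (21.7-fold), over AHSG, a liver serum protein (21.7-fold), near NT5M (21.1-fold), at ENO1, a glycolytic enolase (21.0-fold, chr1:8861019-8861464), and inside RPS19 (21.0-fold). The MLL1-only ones reached 13.4- and 12.4-fold near MKLN1, 11.8-fold inside SMAD3, a transducer of TGF-beta signals (chr15:67075555-67077013), 11.8-fold inside POLRMT, 11.1-fold near KLF14 and 10.7-fold near BMP4. Shared ones reached 85.9-fold for MLL4 and 19.9-fold for MLL1 inside TUBB3, a neuronal tubulin, and 66.5- and 23.3-fold inside AATK.

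The HOXA cluster, a classical target of MLL1, showed the contrast within 1 locus. Over the cluster and 5 kb on each side (chr7:27087993-27205091) MLL1 had 22 peaks of 3.71- to 101-fold that covered 33830 bp. MLL4 had 11 peaks of 3.33- to 7.50-fold that covered 2828 bp. The widest MLL1 peak spanned 11531 bp over HOXA9 and its neighbours (chr7:27163537-27175067), and the widest MLL4 peak 498 bp. The wide MLL1 peak was joined to an MLL4 peak at its end, away from the HOXA9 start whose sequence is shown above.

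Among the fixed genes, the methyltransferase genes themselves had both proteins at their starts: KMT2D (MLL4 5.84-fold, MLL1 16.1-fold), KMT2C (8.34- and 26.3-fold) and KMT2A (18.3- and 12.4-fold, the one with MLL4 the higher). MEN1 (9.67-fold), MDM2, the ubiquitin ligase of p53 (8.60-fold), EPHB2, a receptor of intestinal crypts (4.30-fold), and RPL29 (6.98-fold) had MLL1 without MLL4 at their starts. CDKN1A, which encodes p21 (5.00- and 6.67-fold), KLF5 (4.17- and 27.4-fold) and JUN (4.85- and 6.19-fold) had both. MEIS1, a HOX cofactor, had MLL4 alone at 4.17-fold and no H3K4me3 peak at its start in either library. KDM6A lies on chromosome X, and CCND1, AXIN2, LGR5, FOSL1 and ACTB had no listed start. By assigned regions (the coding gene with the nearest end within 100 kb), AXIN2, a feedback inhibitor of Wnt signalling, had 15 MLL4-only, 7 MLL1-only and 2 shared regions, CCND1, cyclin D1, had 10, 4 and 2, and FOSL1, an AP-1 subunit, had 0, 4 and 1. LGR5, a crypt stem cell receptor, had 1 MLL4-only and 1 MLL1-only region, and ACTB had 2, 1 and 2.

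In total 70256 regions were assigned to a coding gene: 53.4% were MLL4-only, 35.8% MLL1-only and 10.8% shared. The gene lists below are set against those shares. They were chosen with earlier results of these data known and are counts without a test. Start counts are read against the 9648 starts with H3K4me3, of which 49.7% had both proteins, 44.9% MLL1 alone and 1.98% MLL4 alone. Members without H3K4me3 are read against the 5453 starts without it, of which 15.5% had MLL4 alone. AP-1 and early response genes, which growth factors switch on within minutes, leaned most to MLL1-only: of 217 regions 65 were MLL4-only (30.0%), 120 MLL1-only (55.3%) and 32 shared (14.7%). DUSP5, a phosphatase of ERK, had 2, 18 and 2 regions of these classes, KLF6 had 0, 12 and 0, and SPRY4, an inhibitor of receptor signalling, 7, 11 and 2. JUN, EGR1 and IER2 each had 3 shared regions, and KLF10 and SPRY2 had 7 and 6 MLL4-only ones.

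Colon epithelium and Wnt genes had 94 MLL4-only (42.9%), 102 MLL1-only (46.6%) and 23 shared regions (10.5%), and the members split. TCF7L2, a nuclear effector of Wnt signalling, had 5, 19 and 2 and ZNRF3, a ubiquitin ligase that removes Wnt receptors, 4, 14 and 1, while EPHB2 had 10, 7 and 0 and EPHB3 8, 6 and 1, and CDX2, an intestinal identity factor, 3, 0 and 2. At starts, 9 of 18 members had both proteins, 5 MLL1 alone and 1 MLL4 alone. Without TCF7L2 the list had 89 MLL4-only and 83 MLL1-only regions, so that 1 gene decided which class was the larger.

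Cytosolic ribosomal protein genes stood highest in shared regions: 59 of 190 were MLL4-only (31.1%), 81 MLL1-only (42.6%) and 50 shared (26.3%), and the starts of 23 of 42 members had both proteins, 18 MLL1 alone and 0 MLL4 alone. All 42 had H3K4me3, and these shares (54.8%, 42.9% and 0%) lay near those of all such starts. RPL3 had 3, 6 and 4 regions, RPL4 0, 1 and 2, RPL13 2, 2 and 2, RPL6 2, 4 and 0, RPL23 2, 4 and 1, RPL38 4, 4 and 1, RPL11 5, 2 and 0 and RPL5 5, 0 and 1. Next were p53 targets, with 42 MLL4-only (41.6%), 37 MLL1-only (36.6%) and 22 shared regions (21.8%). TNFRSF10B, a death receptor, had 4, 2 and 3, BBC3, the apoptosis inducer PUMA, 5, 2 and 2, TP53INP1 7, 4 and 2, CDKN1A 3, 1 and 2, BTG2, an antiproliferative factor, 1, 4 and 0 and PHLDA3 0, 4 and 0. Of their 23 listed starts 10 had both proteins, 11 MLL1 alone and 1 MLL4 alone.

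HOX and MEIS genes had 63 MLL4-only (47.4%), 44 MLL1-only (33.1%) and 26 shared regions (19.5%). The cofactors PBX3 (8, 3 and 1) and MEIS1 (6, 0 and 0) held mostly MLL4-only regions, and in HOXA13 (2, 4 and 0), HOXB4 (2, 3 and 0), HOXB9 (3, 3 and 3), HOXB6 (1, 2 and 3) and HOXA3 (1, 2 and 2) most regions were MLL1-only or shared. Of 20 listed starts 6 had both, 7 MLL1 alone, 3 MLL4 alone and 4 neither, and 12 of the 20 had H3K4me3. H3K4 methyltransferase complex genes had 40 MLL4-only (45.5%), 35 MLL1-only (39.8%) and 13 shared regions (14.8%). WDR5, a core subunit of these complexes, had 12, 2 and 1, KMT2D 1, 9 and 1, KMT2C 4, 4 and 2, KMT2A 2, 0 and 2, SETD1A 4, 0 and 2 and NCOA6 3, 4 and 0. All 15 listed starts had H3K4me3 and MLL1, 10 of them with MLL4, and over all starts with H3K4me3 94.6% had MLL1. Without WDR5 the complex genes had 28 MLL4-only and 33 MLL1-only regions, the other order.

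The neuronal and blood marker lists had the highest shares of MLL4-only regions. Neuronal markers had 68 MLL4-only (63.6%), 30 MLL1-only (28.0%) and 9 shared regions (8.41%), with RBFOX3, a neuronal splicing factor, at 33, 11 and 0, RBFOX1 at 6, 0 and 0, GRIN1, a glutamate receptor subunit, at 6, 3 and 4, TUBB3 at 3, 1 and 4, NEUROD1 at 2, 3 and 0 and MAP2 at 2, 2 and 1. RBFOX3 alone gave 44 of the 107 regions, and without it the neuronal shares were 55.6% MLL4-only, 30.2% MLL1-only and 14.3% shared, close to those over all genes. Of the 8 listed neuronal starts 3 had H3K4me3. Blood markers had 25 MLL4-only (67.6%), 10 MLL1-only (27.03%) and 2 shared regions (5.41%), with IKZF1, a lymphoid factor, at 8, 0 and 0, IKZF3 at 3, 1 and 1, PTPRC at 2, 0 and 0, CD34 at 1, 4 and 0, CD3E at 0, 2 and 0, TAL1 at 2, 2 and 0 and SPI1 at 1, 1 and 1. Without IKZF1 the MLL4-only share of the blood list was 58.6% of 29 regions. None of the 8 listed blood starts had H3K4me3, and 2 of them had MLL4 alone, against 15.5% of all 5453 starts without H3K4me3. With 8 starts this is a count and no excess is read from it.

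The remaining lists lay near the background in their assigned regions when all their members were counted. TGF-beta, EMT and mesenchyme genes had 83 MLL4-only (52.9%), 61 MLL1-only (38.9%) and 13 shared regions (8.28%), but single members lay at opposite ends. The collagen genes COL5A1 (20, 2 and 1) and COL3A1 (8, 0 and 0) held mostly MLL4-only regions, and SMAD3 (5, 24 and 2), SMAD7 (2, 7 and 1) and SNAI1 (2, 4 and 0) mostly MLL1-only ones. ZEB1 had 1, 2 and 2, TGFB1 3, 1 and 2 and TGFBR1 0, 1 and 2. Without SMAD3 the MLL4-only share was 61.9%.

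Adhesion and laminin genes had 85 MLL4-only (49.7%), 64 MLL1-only (37.4%) and 22 shared regions (12.9%), of which PLEC, the linker protein plectin, had 20, 6 and 13, ITGA3, an integrin, 7, 12 and 2, JUP 9, 2 and 1, ITGB1 8, 5 and 0, CDH3, P-cadherin, 0, 6 and 0 and ITGA6 2, 1 and 1. Without PLEC the shared share of the adhesion list was 6.82%. Cell cycle and replication genes had 83 (52.2%), 54 (34.0%) and 22 (13.8%), with GINS2, a replication factor, at 20, 6 and 4, RRM2, a subunit of ribonucleotide reductase, at 9, 6 and 0 and MCM7 at 1, 0 and 3. All 22 of their listed starts had H3K4me3 and MLL1, and 94.6% of all starts with H3K4me3 had MLL1. Of the 22, 14 also had MLL4 (63.6%), against 49.7% with both proteins over all starts with H3K4me3. Cholesterol synthesis and glycolysis genes had 77 (53.1%), 51 (35.2%) and 17 (11.7%). Of their 18 listed starts, all with H3K4me3, 13 had both proteins (72.2%) and 5 MLL1 alone. Of the 13 listed starts of the adhesion list, 12 with H3K4me3, 4 had both (30.8%) and 7 MLL1 alone. INSIG1, a sterol sensor, had 9, 6 and 1, SREBF2 6, 2 and 1, PFKL, a phosphofructokinase, 12, 2 and 1, ENO1 3, 6 and 2, PKM 2, 1 and 3 and GAPDH 0, 0 and 2.

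Over all genes, MLL4-only regions were most numerous at TSNARE1 (48, beside 13 MLL1-only), CBFA2T3, a transcriptional corepressor (45 beside 10), ZC3H3 (38 beside 7), ZNF469 (38 beside 8) and ADGRB1, an adhesion receptor (37 beside 7). MLL1-only regions were most numerous at SEPTIN9, a cytoskeletal GTPase (25, beside 34 MLL4-only), SMAD3 (24 beside 5), BAHCC1 (22 beside 32), PDP1, a mitochondrial phosphatase (22 beside 2), and SLC39A11, a zinc transporter (21 beside 8). SMAD3, PDP1 and SLC39A11 thus held more MLL1-only than MLL4-only regions, while SEPTIN9 and BAHCC1 were rich in both. Counts per gene were not corrected for gene length, for the stretch nearest to the gene or for DNA copy number. The part of these in the ranking was not tested.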

How the data were processed

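The deposited lists hold 1 ChIP library each, called with MACS2 2.1.1 on hg38 per the submitters' processing notes; peak names per the file headers show that each library was called alone against the input of its genotype. Neither aligner nor read filters are given in the sources used here. The authors' columns used were fold enrichment (a ratio), −log10 p- and q-values and positions. The deposited score, a whole number, was checked and not used further. H3K4me1 lists are broad, the others narrow.

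From these files, overlaps of at least 1 bp on chromosomes 1 to 22 gave the classes with Python 3.11.15, pandas 2.3.3, numpy 2.4.6 and SciPy 1.17.1. The overlap code was tested on simulated intervals and against bedtools 2.31.1. A mark was present where peaks of both WT libraries (1 for H3K4me1) met the region. Shares have 95% Wilson intervals, with neighbouring regions not independent. In shared regions the peak of highest fold stood for each protein. Genes came from RefSeq on GRCh38.p14, whose gene table gives no strand, so regions were placed by either gene end within 1 kb, and gene starts came from the promoter table, which lists no gene of chromosome 8. Motifs were matched by exact letters on both strands, in 1 outermost start per gene.

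The genes named follow a rule: the 10 regions of highest fold per class outside structural RNA genes, up to 3 members per class in each of 12 gene lists, 18 fixed genes, and the 5 genes with the most MLL4-only and MLL1-only regions; others are named as chosen after seeing values. The members, lists and tests were chosen with earlier results of these data known. Alternatives tried: only peaks with −log10 q-values from 5 upward, lists of equal length, overlap of 50% of the shorter peak, chromosome X, structural RNA genes left out, the mark at the summit, and each mark replicate left out. The strongest 5000 peaks, and MLL4 peaks over KO MLL4 peaks left out, were added after seeing the data, as were gene lists without their member with most regions. Other KO lists were not used here. Some genes that the naming rule or the lists hold are not reported here.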

Additional observations from a re-analysis of the deposited data

How the results depend on the processing

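The 11 shares compared were recomputed under up to 10 alternatives, and a share was counted as moved when it left its 95% interval. Keeping chromosome X and leaving out structural RNA genes moved none. In the order MLL4-only, MLL1-only and shared regions, the values that moved were as follows. At a −log10 q-value of at least 5, H3K4me3 was 10.3%, 90.8% and 86.8%, H3K27ac 53.7% and 94.2% (shared kept), and H3K4me1 47.1% and 80.5% (shared kept), with 25.1% of MLL4 peaks and 15.9% of MLL1 peaks overlapping. With lists of equal length, H3K4me3 was 4.27% and 41.8%, H3K27ac 42.9% and 61.5%, and H3K4me1 36.8% and 65.5%, with shared regions kept, and overlap was 20.9% and 19.6%. With overlap of 50% of the shorter peak, H3K4me3 was 4.85%, 41.5% and 82.9%, H3K27ac 36.9% and 61.6%, and H3K4me1 32.4% and 65.6%, and overlap was 13.9% and 19.3%. With the mark at the summit, H3K4me3 was 2.77%, 38.3% and 78.2%, H3K27ac 32.1%, 56.6% and 91.3%, and H3K4me1 28.8%, 57.6% and 64.7%. With the strongest 5000 peaks of each list, chosen after seeing the data, H3K4me3 was 20.5%, 98.6% and 88.6%, H3K27ac 58.0%, 98.7% and 93.4%, and H3K4me1 50.5%, 80.6% and 82.8%, and overlap was 14.2% and 13.6%. Without MLL4 peaks over KO MLL4 peaks, also added then, shared regions alone moved, to 81.9%, 95.2% and 86.3%. Leaving out 1 replicate of the mark asks for 1 library in place of both: H3K4me3 ranged from 3.83% to 4.29%, from 41.8% to 44.7% and from 81.2% to 83.6%, and H3K27ac from 37.1% to 43.5%, from 64.8% to 65.9% and from 94.8% to 95.4%.

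The order MLL4-only below MLL1-only below shared held for each mark under each alternative except H3K4me3 at the stricter q-value and H3K4me3 and H3K27ac in the strongest 5000 peaks, where MLL1-only regions passed shared ones. The cause was not tested. No paired analysis was possible because no result comes from a test between replicated groups. MLL4 and MLL1 have 1 library each, so peak number and strength of a list cannot be told apart from its antibody and depth.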

Other observations

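p53 peaks called in both WT libraries lay at 11.6% of MLL4-only regions (11.3 to 11.9), 15.0% of MLL1-only regions (14.6 to 15.4) and 63.4% of shared regions (62.4 to 64.5), against 17.7% of all regions. By single library the shares were 15.1% and 13.8%, 17.6% and 17.7%, and 69.6% and 68.9%. Where the p53 peaks had to cover the summit, they were found at 8.95%, 9.73% and 43.7%. Shared regions were also the widest and the richest in H3K4me3, and the part of that in the p53 share was not tested.

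The MLL1 list of the KO line, which was called against another input, held 28515 peaks on chromosomes 1 to 22. An MLL1 peak of KO lay at 8.32% of MLL4-only regions (8.07 to 8.57), 38.4% of MLL1-only regions (37.8 to 38.9) and 88.1% of shared regions (87.3 to 88.8), against 26.1% of all regions. The MLL4-only share is 3908 regions with MLL4 and no MLL1 peak in WT. MLL4-only regions were chosen for lacking an MLL1 peak in WT, while all regions include those chosen for having one. A lower KO share in the MLL4-only class was therefore favoured by how the classes were defined, and nothing is read from it.

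The mix of classes varied by chromosome. MLL4-only regions made up 49.3% of those on chromosome 17 and 64.1% on chromosome 13, the lowest and highest shares. Shared regions made up 7.07% on chromosome 4 and 12.8% on chromosome 17.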
